A study of Mus musculus with 5 samples.

Results

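B16F10 mouse melanoma cells in which Setdb1 was lowered by a short hairpin RNA were compared with B16F10 cells that carried the empty knockdown vector. Both cultures were infected with lentivirus, grown in serum-containing medium, collected on day 7 and represented by 1 RNA-sequencing library each. All genes with an FPKM (read fragments adjusted for gene length and sequencing depth) of at least 1 in either library were taken, which gave 11557 of the 54699 genes in the deposited table. At this limit Trappc2, with an FPKM of 1.001 in the higher of the 2 libraries, was just inside and Gm30074, at 0.999, just outside. The study asked how the cells' transcriptome differed after forced expression of Myod1 or of Pparg, or after Setdb1 knockdown, and its other 3 libraries, Myod1 expression, Pparg expression and the empty expression vector, came from cells collected on day 8. The labels give the genotype of both vector controls as wild type, apart from the vector, and describe the knockdown cells as differentiated. The hairpin's sequence, the number of hairpins used and any selection of infected cells are not given in the sources used here.

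Setdb1 is a histone methyltransferase that places methyl groups on lysine 9 of histone H3, largely at repeated elements and at genes kept silent. It is brought to its sites by Trim28 and zinc finger proteins, and it acts together with Atf7ip and the HUSH complex. In melanoma SETDB1 lies in a region that is often gained, and the methylation it lays down overlaps in part with silencing by DNA methylation.

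Differences are given as log2 ratios, log2(FPKM + 1) of the knockdown library minus log2(FPKM + 1) of the knockdown vector library, so that 1 stands for a 2-fold difference. This ratio understates differences between low values, and all counts of genes at least 2-fold higher or lower use it. With 1 library per group there was no replicate spread and no test. Folds are ratios of FPKM, and their 95% intervals, from the exact binomial distribution of the reads, cover counting error only. The empty expression vector library served as a second control, and as background the 2 controls, whose vectors and days of collection were not the same, were set against each other. The comparisons share libraries, so their values stand side by side and do not support each other.

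The knockdown library held 17383206 reads in genes and the knockdown vector library 16214802, within the range of 16214802 to 18300670 over the 5 libraries. Melanocyte genes were abundant in both libraries: Pmel, a melanosome matrix protein, had an FPKM of 4347 with knockdown and 2993 in the vector control, Tyrp1, a pigment enzyme, 2284 and 2885, and Sox10, the lineage's transcription factor, 298 and 244. Of 28 markers of immune, endothelial, fibroblast and epithelial cells, 2 had an FPKM of at least 1 with knockdown and 1 in the vector control, with summed FPKM of 4.92 and 3.19 (3.36 in the second control). Lyz2 and Vwf were the 2, at 2.05 and 1.5 with knockdown, while 16 of the 28 had no read with knockdown and 20 none in the vector control. In RNA from whole cultures, fewer cells of a kind and less RNA per cell cannot be told apart.

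Setdb1 (ENSMUSG00000015697, chr3:95323525-95357202, GRCm38) had an FPKM of 0.867 in the knockdown library (95% Poisson interval 0.713 to 1.05) and 9.82 in the knockdown vector library (9.25 to 10.4). The second control had 10.3, Myod1 expression 8.41 and Pparg expression 15.2. The knockdown library was thus the lowest of the 5, with 8.83% of the vector control's value, or 11.3-fold less (9.30 to 13.9) at a log2 ratio of -2.53. The 2 controls differed by -0.07.

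Among the 11557 genes, 1200 (10.4%) were at least 2-fold higher with knockdown and 1326 (11.5%) at least 2-fold lower. Against the second control 1120 (9.69%) were higher and 1344 (11.6%) lower. The knockdown vector library differed from the second control by at least 2-fold in far fewer of the same genes, with 158 (1.37%) higher and 142 (1.23%) lower. A 2-fold difference in the same direction from both controls was found for 745 higher (6.45%) and 971 lower genes (8.4%). The median log2 ratio was 0.02, and the standard deviation over genes was 0.86, against 0.40 between the controls. Differences of 4-fold or more numbered 118 higher and 192 lower, against 18 and 17 between the controls. Among the 10705 genes that had an FPKM of at least 1 in the vector control, 863 (8.06%) were higher and 1326 (12.4%) lower, and the other higher genes entered the comparison through the knockdown library alone. Every gene at least 2-fold lower on this scale had to pass in the vector control, so these 2 shares lean toward lower genes.

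**Figure D1:**
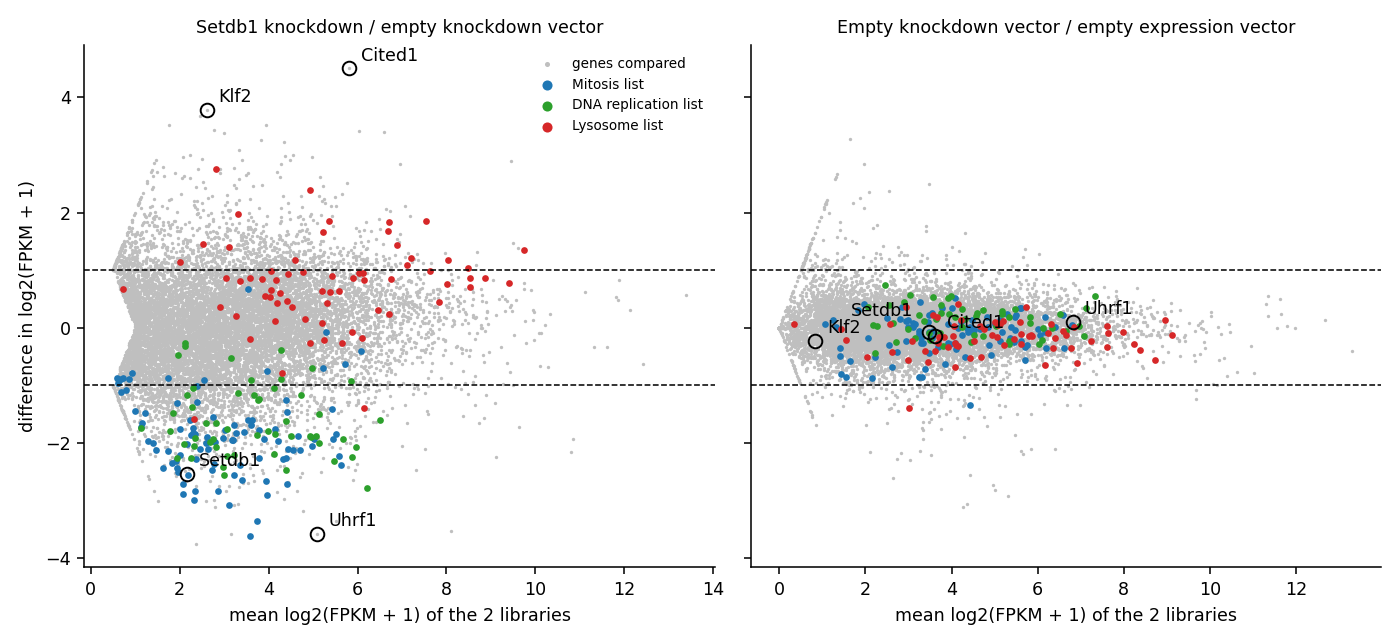
Difference in log2(FPKM + 1) for each gene compared, plotted against its mean log2(FPKM + 1) in the 2 libraries, for knockdown against knockdown vector (left) and for the 2 controls (right), with 3 gene lists in colour, 4 genes circled and the 2-fold limits dashed. All DNA replication genes and all but 1 of the mitosis genes lie below 0 on the left, and both lists lie around 0 on the right, and the spread over all genes is 0.86 on the left and 0.40 on the right.

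Cited1, a transcriptional co-regulator that is expressed in the melanocyte lineage, had the highest log2 ratio of the named genes. Its FPKM was 266 with knockdown, 10.8 with the knockdown vector, 12 with the expression vector, 9.10 with Myod1 expression and 11.5 with Pparg expression. The 4 other libraries lay close together and the knockdown library stood 24.7-fold (22.1 to 27.7) above its control. Klf2, a Kruppel-like transcription factor associated with quiescence, was at 21.7 with knockdown against 0.648 (20 reads) in the vector control, 0.928 in the second control, 4.96 with Myod1 expression and 1.38 with Pparg expression. Its ratio of 33.6 had an interval of 21.6 to 55.3. Cited1 lies at chrX:102247381-102252181 and Klf2 at chr8:72319033-72321656.

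The 15 highest protein-coding genes at least 2-fold above both controls, with at least 100 reads in the higher of the knockdown and vector libraries, held secreted, membrane and signalling proteins beside transcription factors and histones. After Cited1 (4.50) and Klf2 (3.79) came Atf3 (3.51), a stress-responsive transcription factor. Atf3 was at 51.4 with knockdown and 3.58 with the knockdown vector, but at 19.2 with the expression vector, so the controls themselves differed by -2.14 and the knockdown exceeded the second control by 1.38 on the log2 scale. Hist1h1c, a linker histone, was at 211 against 19, and 11.3 in the second control. S100a1, a calcium-binding protein, was at 313 against 28.9 and 46.0. The lysosomal protease Ctsh was at 24.8 against 1.46 and 2.48, a ratio of 17 (14 to 20.8).

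Prss12, a secreted serine protease, had an FPKM of 43.2 with knockdown, 3.61 and 2.12 in the controls, 3.62 with Myod1 expression and 1.36 with Pparg expression. Ggt1, an enzyme of glutathione turnover, was at 57.2 against 6.38 and 5.55 in the controls, and 3.47 and 5.26 in the expression libraries. For both genes the knockdown library was far above the other 4. The remaining members were the kinase Dyrk1b (log2 ratio 3.23), Id3 (3.09), the junctional adhesion molecule F11r (3.0), the small GTPase Rras (2.99), Hist1h2bc (2.97), Aldh3b1, an aldehyde dehydrogenase (2.91), and Pik3ip1, an inhibitor of PI3 kinase (2.91). Of the 15 genes, 13 had their highest value of the 5 libraries with knockdown. The exceptions were Id3, at 28.3 with knockdown but 55.5 with Myod1 expression and 34.7 with Pparg expression, and Aldh3b1, at 60.7 with knockdown and 139 with Myod1 expression. Atf3 and Rras were the 2 of the 15 whose controls differed by 2-fold or more, Rras by -1.29.

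The 15 lowest genes chosen by the same rule had their lowest value of the 5 libraries with knockdown in all 15 cases, and 5 of them belong to the cell-cycle lists described below. Uhrf1, which guides the maintenance methyltransferase Dnmt1 to newly copied DNA (ENSMUSG00000001228, chr17:56303321-56323486), was at 8.79 with knockdown against 116 with the knockdown vector, 108 with the expression vector, 46.1 with Myod1 expression and 96.8 with Pparg expression. It was 13.2-fold lower (12.2 to 14.3), at a log2 ratio of -3.58. Pimreg, a regulator of the transition from metaphase to anaphase, had the lowest log2 ratio (-3.61), with 2.41 against 40.6 and 40.3 in the controls. Top2a, the topoisomerase that untangles chromosomes, was at 3.20 against 42.1 and 62.6. All 3 genes were also lower with Myod1 expression, at 46.1, 22.5 and 9.81, than in the controls.

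Ywhaz, a 14-3-3 adaptor protein, was at 13.3 with knockdown and 145 and 128 in the controls. Cks1b, a subunit of cyclin-dependent kinases, was at 8.16 against 81.7 and 81.0, and Pclaf, a partner of the replication clamp, at 2.21 against 26.1 and 23. In these 3 genes the controls lay close together and the knockdown library far below them. The others were Anln, an organiser of the cleavage furrow (-3.07), Hmgn2, a nucleosome-binding protein (-3.06), Gamt, an enzyme of creatine synthesis (-3.01), the spindle motor Kif11 (-2.98), the centriole protein Cetn2 (-2.98), the matrix-associated Sparcl1 (-2.97) and cyclin A2, Ccna2 (-2.90). The list also held Tuba1b (-3.53), an alpha tubulin with an FPKM of 80.2 against 937, and Gm10282 (-3.57), a predicted gene with 1.60 against 29.9. Tuba1b and Gm10282 carry sequence that near-identical copies may share, and the handling of shared reads is not given in the sources used here.

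**Figure D2:**
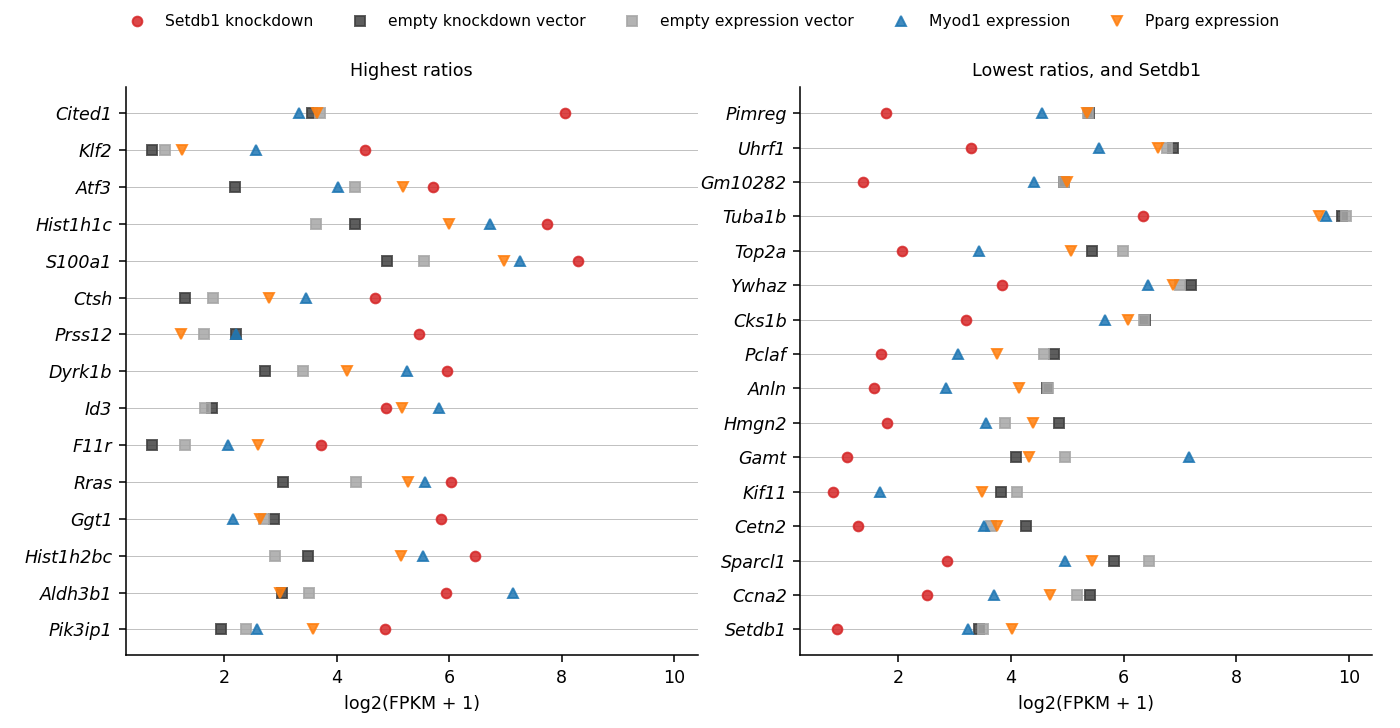
log2(FPKM + 1) in each of the 5 libraries for the 15 highest (left) and the 15 lowest protein-coding genes with Setdb1 (right), 1 symbol per library. The knockdown library (red) lies to the right of the other 4 in 13 of the 15 genes on the left and to the left of them in all genes on the right.

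Genes of DNA replication were lower together. All 54 listed genes were compared, all 54 had a log2 ratio below 0, and 45 were at least 2-fold lower, beside 11.5% of all genes. The list's median was -1.80, against 0.02 for all genes, -1.70 against the second control and 0.13 between the controls. Origin licensing, the loading of the Mcm helicase, had 13 of 15 genes at least 2-fold lower. Cdc6, the loading factor, was at 2.28 with knockdown and 18.3 and 12.2 in the controls, an 8.02-fold difference from its control (6.96 to 9.27). Of the helicase subunits, Mcm4 was at 7.95 against 48.5 and Mcm5 at 25.2 against 98.5.

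At the replication fork 24 of 31 genes were at least 2-fold lower, among them the leading-strand polymerase Pole (1.20 against 9.54) and the clamp Pcna (50.7 against 156). All 8 genes of nucleotide supply were. Rrm2, the cell-cycle regulated subunit of ribonucleotide reductase, had the lowest ratio of the replication list (-2.79), with 27.1 against 192 and 131 in the controls. The smallest difference was that of Orc5, an origin recognition subunit, at 2.99 against 3.76 (-0.26). Homologous recombination and Fanconi genes followed the same direction, with 16 of 23 at least 2-fold lower, beside 11.5% of all genes, and a median of -1.53. Brca1, which acts early in this repair, was at 7.09 against 15.6 and was within 2-fold of the second control (10.2).

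Of 94 mitosis genes compared, 80 were at least 2-fold lower, beside 11.5% of all genes, and 93 were below 0, and the median was -1.93. Against the second control the median was -2.00, and between the controls it was -0.06. By role, 21 of 26 mitotic cyclins, kinases and regulators of the anaphase-promoting complex, 16 of 23 kinetochore genes, 12 of 13 condensin, cohesin and topoisomerase genes, and 31 of 32 spindle and cytokinesis genes were at least 2-fold lower. Ccnb1, the cyclin that starts mitosis, was at 7.33 with knockdown, 53.8 and 42.0 in the controls, 15.4 with Myod1 expression and 30.4 with Pparg expression. The polo kinase Plk1 was at 20.6 against 112 and 108, and the checkpoint kinase Bub1 at 0.546 against 10.4 and 13.4.

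Mki67, a marker of cycling cells, was at 0.897 with knockdown and 12.6 with the knockdown vector, and its controls also differed, since the expression vector library had 33.5 (-1.34 between the controls). Pttg1, securin, was the 1 gene of the mitosis list above 0, at 13.6 against 8.22 and 9.49 in the controls (0.67). Fzr1, an activator of the anaphase-promoting complex outside mitosis, was at 36.9 against 39.1. Removal of the trends with GC content and length, described below, left the medians of the replication and mitosis lists at -1.67 and -1.81.

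Many mitotic promoters carry a CHR element beside CCAAT boxes, and many S-phase promoters carry E2F sites. These words were therefore looked for in RefSeq promoter windows of GRCm38.p6, which run from 250 bases before to 50 bases after the transcript start, on both strands. The letters searched were TTTGAA for the CHR, CCAAT for the CCAAT box, TTTCCCGC or TTTGGCGC for E2F and TGACTCA for AP-1, with overlaps allowed. The promoters below belong to the 3 mitosis genes with the lowest ratios that hold both TTTGAA and CCAAT among those with a RefSeq promoter, and capitals mark either word or its reverse complement.
Top2a promoter, chr11:99024140-99024439 (minus strand): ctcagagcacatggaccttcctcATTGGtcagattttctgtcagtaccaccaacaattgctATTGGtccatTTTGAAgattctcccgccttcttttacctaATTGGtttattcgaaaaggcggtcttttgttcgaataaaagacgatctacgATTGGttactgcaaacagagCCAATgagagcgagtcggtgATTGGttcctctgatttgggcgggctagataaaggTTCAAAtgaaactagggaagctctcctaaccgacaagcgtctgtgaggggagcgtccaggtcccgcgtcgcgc
Kif11 promoter, chr19:37376132-37376431 (plus strand): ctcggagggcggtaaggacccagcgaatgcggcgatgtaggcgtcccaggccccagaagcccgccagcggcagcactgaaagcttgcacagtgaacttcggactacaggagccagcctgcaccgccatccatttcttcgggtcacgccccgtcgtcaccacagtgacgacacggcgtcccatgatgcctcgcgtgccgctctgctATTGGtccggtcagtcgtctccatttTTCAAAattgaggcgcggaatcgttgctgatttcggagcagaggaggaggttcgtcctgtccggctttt
Mki67 promoter, chr7:135716330-135716629 (minus strand): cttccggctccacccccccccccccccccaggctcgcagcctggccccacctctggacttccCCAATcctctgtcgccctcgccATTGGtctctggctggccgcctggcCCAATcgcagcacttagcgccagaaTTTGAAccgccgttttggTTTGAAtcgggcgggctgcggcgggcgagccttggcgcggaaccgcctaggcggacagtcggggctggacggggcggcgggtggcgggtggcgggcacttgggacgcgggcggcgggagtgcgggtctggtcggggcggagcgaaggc

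The next 3 belong to the replication genes with the lowest ratios that hold an E2F word, and capitals mark that word or its reverse complement.
Cdc6 promoter, chr11:98907901-98908200 (plus strand): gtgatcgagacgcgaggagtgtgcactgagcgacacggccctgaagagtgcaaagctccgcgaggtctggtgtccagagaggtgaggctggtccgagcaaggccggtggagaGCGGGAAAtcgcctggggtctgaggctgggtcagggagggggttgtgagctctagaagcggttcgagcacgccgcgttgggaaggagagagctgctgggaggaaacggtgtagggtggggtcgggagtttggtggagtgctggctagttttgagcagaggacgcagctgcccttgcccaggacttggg
Mcm6 promoter, chr1:128359656-128359955 (minus strand): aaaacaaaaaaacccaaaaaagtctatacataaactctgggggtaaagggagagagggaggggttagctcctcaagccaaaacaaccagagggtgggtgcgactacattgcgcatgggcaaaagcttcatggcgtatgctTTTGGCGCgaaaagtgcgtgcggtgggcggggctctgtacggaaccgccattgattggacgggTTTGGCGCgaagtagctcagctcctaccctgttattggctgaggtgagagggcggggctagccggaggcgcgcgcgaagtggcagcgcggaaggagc
Mcm3 promoter, chr1:20820263-20820562 (minus strand): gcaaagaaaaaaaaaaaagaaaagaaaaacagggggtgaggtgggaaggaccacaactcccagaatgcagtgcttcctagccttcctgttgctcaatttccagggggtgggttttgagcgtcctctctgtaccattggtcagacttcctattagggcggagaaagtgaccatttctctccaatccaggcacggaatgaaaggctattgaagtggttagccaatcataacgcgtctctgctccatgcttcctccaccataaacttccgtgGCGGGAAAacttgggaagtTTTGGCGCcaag

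Top2a had 8 marked words in its 300 bases, Mki67 had 5 and Kif11 had 2, while Mcm6 and Mcm3 had 2 E2F words each and Cdc6 had 1. Of the 85 promoters that belong to the mitosis list (78 of its 94 genes matched), 62.4% held TTTGAA and 68.2% held CCAAT. Over the 32851 promoters of the whole table the shares were 17.9% and 37.4%, and over the 10545 promoters of the protein-coding genes compared 11.7% and 37.7%. The replication list's 52 promoters (44 of 54 genes) held TTTGAA in 11.5%, CCAAT in 51.9% and an E2F word in 25%, where all promoters held an E2F word in 1.56% and those of the genes compared in 3.07%. Among the 1055 promoters of protein-coding genes at least 2-fold higher with knockdown, TTTGAA was in 9.86% and TGACTCA in 4.93%, beside 3.45% of the promoters of the genes compared and 5.2% of all promoters for TGACTCA. The same shares for the genes at least 2-fold lower are not given, because 79.4% of them, under the 80% required, matched a promoter. Letters in a window are a description and show no binding.

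**Figure D3:**
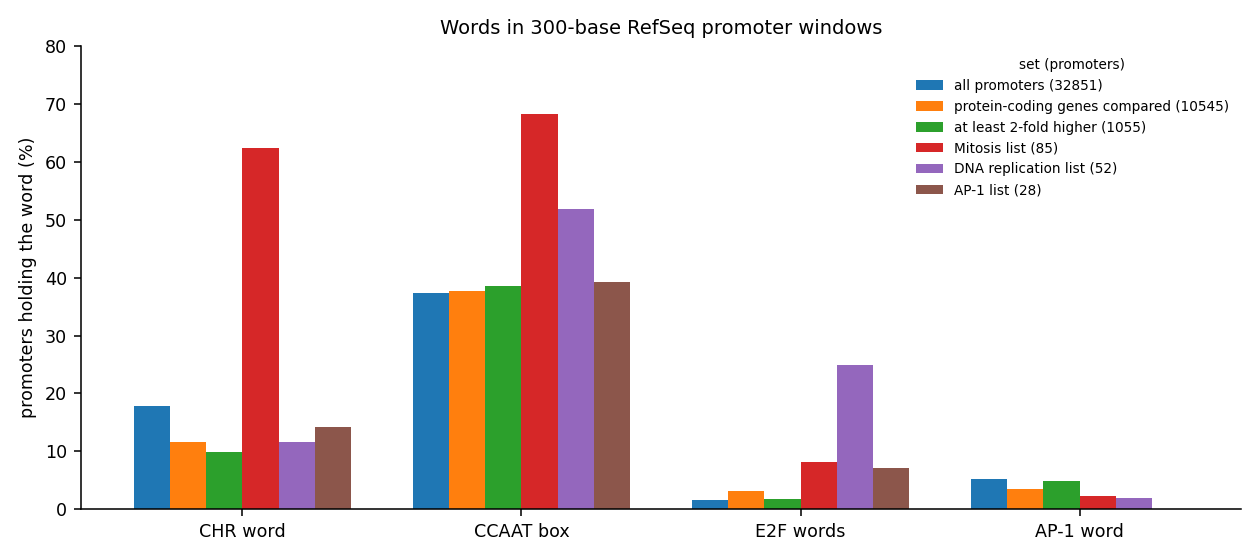
Share of promoter windows of 300 bases that hold each word on either strand, in percent, for all RefSeq promoters, the protein-coding genes compared, those at least 2-fold higher with knockdown, and 3 gene lists, with the number of promoters in brackets. The mitosis list stands highest for the CHR word (62.4%) and the CCAAT box (68.2%), and the replication list for the E2F words (25%).

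Of the 32 regulators of the cycle compared, 25 were below 0 and 7 above, with a median of -0.62. Ccnd1, the D-type cyclin of the G1 phase, was at 9.58 with knockdown, 62.4 with the knockdown vector and 36.3 with the expression vector, 6.52-fold lower than its control (6.05 to 7.02). Its partner kinase Cdk4 was at 135 against 124. The transcription factors E2f1 (7.11 against 33.5) and Foxm1 (10.5 against 50.5) were lower, and E2f4, which acts in repressor complexes, was at 22 against 20.1. Of the inhibitors, Cdkn1a, p21, was at 262 with knockdown and 119 in each control, a 2.20-fold difference (2.14 to 2.26), and 425 with Myod1 expression and 179 with Pparg expression. Cdkn1b, p27, was at 19.99 against 10.3 and 15.9. Cdkn2a and Cdkn2b had no reads in any of the 5 libraries. In all, 2 of 32 genes of this list were at least 2-fold higher and 12 lower, beside 10.4% and 11.5% of all genes.

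Of 30 p53 target genes and regulators, 7 were at least 2-fold higher and none lower, beside 10.4% and 11.5% of all genes, with a median of 0.29 (0.67 against the second control and 0.15 between the controls). All 7 were also at least 2-fold above the second control. They included Bbc3, the pro-apoptotic PUMA, at 50.8 with knockdown and 6.19 and 7.81 in the controls, Sesn2, a stress-induced regulator of growth, at 129 against 21.7 and 29.4, and Gadd45a, a growth arrest gene, at 28.6 against 3.59 and 6.98. Btg2, an antiproliferative gene, was at 14.6 against 2.88 and 1.54. Trp53 itself (65.2 against 62.3) and its inhibitor Mdm2 (24 against 25.4) were close to the vector control. Ccng1, another p53 target, was at 66.9 against 82.9 in the vector control but 31.5 in the second control, so that its sign depended on the control.

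The AP-1 and immediate early list, genes switched on quickly by stress and growth signals, had 14 of 29 genes at least 2-fold higher, beside 10.4% of all genes, and 4 lower, near the 11.5% of all genes, with a median of 0.92 (0.58 against the second control and -0.09 between the controls). Against both controls 11 were higher and 1 lower, and with the GC and length trends removed 11 were higher and 5 lower. The 10 AP-1 and ATF genes among them had a median of 1.20, 0.79 against the second control and -0.61 between the controls. Jun was at 86.3 with knockdown, 14.9 and 26.6 in the controls, 14.4 with Myod1 expression and 25.8 with Pparg expression. The knockdown library was the highest of the 5 and 5.78-fold above its control (5.36 to 6.23). Junb was at 35.8 against 9.17 and 11, and Jund at 45.7 against 13.6 and 21.5. Fos, Jun's usual partner, was low in both, at 1.24 against 2.01. Dusp6, a phosphatase that marks ERK signalling, was at 10.9 against 28.6, and Myc at 9.31 against 23.3. Against the second control Dusp6 (15.3) and Myc (14.6) differed by less than 2-fold.

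Of the 16 Kruppel-like and Sp factors compared, Klf2 and Klf4 were at least 2-fold higher, a share near the 10.4% of all genes, and 1 was lower. Klf4, also tied to differentiation and arrest, was at 4.43 against 0.647 and 1.02. Both passed the FPKM limit only in the knockdown library, and of the 13 factors that passed in the vector control none was higher. Among Id and Hes factors, which hold back basic helix-loop-helix proteins, Id3 was at 28.3 against 2.44 and 2.15, and Hes1, a target of Notch signalling, at 4.01 against 1.03 and 0.902. Id2 was at 54.4 against 28.0 in the vector control and 12.5 in the second. Tcf12, an E protein that Id proteins bind, was at 3.0 against 17.6 and 17.5, and 10.1 and 9.46 in the expression libraries. Of 21 TGF-beta and BMP genes, 3 were at least 2-fold higher and 1 lower, a share near the 10.4% of all genes for the higher ones, with 11 below 0 and a median of -0.15. Among the 4, the ligand Tgfb1 was at 14.5 against 3.40, the procollagen protease Bmp1 at 21.5 against 3.18, and the receptor Bmpr1a at 1.51 against 6.0.

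The H3K9 methylation list, 26 genes, had 7 at least 2-fold lower, Setdb1 itself among them, and 1 higher, beside 11.5% and 10.4% of all genes, with a median of -0.40. Only 4 were at least 2-fold lower than both controls, and with the GC and length trends removed the median was -0.14, with 5 lower and 2 higher. Of the other methyltransferases for this residue, Suv39h1 was at 4.80 with knockdown against 12.9 and 9.83 in the controls, and Suv39h2 at 0.466 against 2.45 and 1.25. Both were within 2-fold of the second control on the log2 scale used, at -0.90 and -0.62. Ehmt2, which makes the mono- and dimethyl marks in active chromatin, was at 80.7 against 67.4. The HP1 proteins read the mark: Cbx3 was at 2.24 against 13.2 and 14.9, Cbx5 at 11.2 against 23.9 and 22.6, and Cbx1 at 9.52 against 13.1 and 14.6.

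None of the 7 Setdb1 partners and HUSH genes compared reached a log2 ratio of 1 or -1. Atf7ip, which stabilises Setdb1, was at 10.7 with knockdown and 5.08 and 5.82 in the controls, a log2 ratio of 0.95 and a ratio of FPKM of 2.11 (1.99 to 2.23), the highest value of the 5 libraries. With the GC and length trends removed its log2 ratio was 1.46. Trim28, the adaptor that recruits Setdb1, was at 171 against 211 and 169. Of the demethylases, Kdm1a was at 8.62 against 21.9 and 22.6, and Kdm4a at 39.9 against 15.2 in the vector control and 28.5 in the second.

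Maintenance DNA methylation genes had 3 of 4 members at least 2-fold lower, beside 11.5% of all genes. Beside Uhrf1, Dnmt1 was at 16.8 with knockdown, 66.0 and 83.8 in the controls, 29.5 with Myod1 expression and 57.2 with Pparg expression. Hells, a chromatin remodeller needed for DNA methylation, was at 0.367 against 6.15 and 5.77, 16.7-fold lower (12.5 to 22.8). The de novo enzymes Dnmt3a (7.38 against 6.38) and Dnmt3b (1.80 against 1.57) were close to the vector control. In the Polycomb complex PRC2, Ezh2, its catalytic subunit, was at 6.0 against 20.1 and 17.9, and Suz12 at 4.86 against 15.1 and 16.1, while Eed was at 10.1 against 10.5. Phf1, an accessory subunit, was at 9.65 against 1.67 and 3.02. Removal of the GC and length trends moved the median of this list from -0.72 to -0.31, with 5 genes in place of 6 at least 2-fold lower.

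Of 13 histone chaperones 6 were at least 2-fold lower, beside 11.5% of all genes, and 7 were within 2-fold. The lower ones included Chaf1a (5.46 against 20.1 and 24.1) and Asf1b (6.06 against 27.7 and 27.0), which assemble histones on newly copied DNA. Of 11 genes for the nuclear lamina and high mobility group proteins, 6 were. Lmnb1, lamin B1, was at 7.84 with knockdown and 45.6 and 46.7 in the controls, whereas Lmna was at 152 against 112 and 142. Hmgb2 was at 9.11 against 27.9. Replication-dependent histone genes, whose transcripts usually end in a stem-loop and not in a poly(A) tail, had 21 of 70 members compared. Of the 21, 11 were at least 2-fold higher and none lower, beside 10.4% and 11.5% of all genes. Only 8 of the 21 reached an FPKM of 1 in the vector control. Of these 8, Hist1h1c and Hist1h2bc were at least 2-fold higher, beside 8.06% of all genes that passed there. Genes that entered through the knockdown library alone had to be higher there, so the count of 11 is a description only. Hist2h3c2 had 106 reads against 1. The replacement histone H2afz, made outside S phase as well, was at 113 against 309 and 278.

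**Figure D4:**
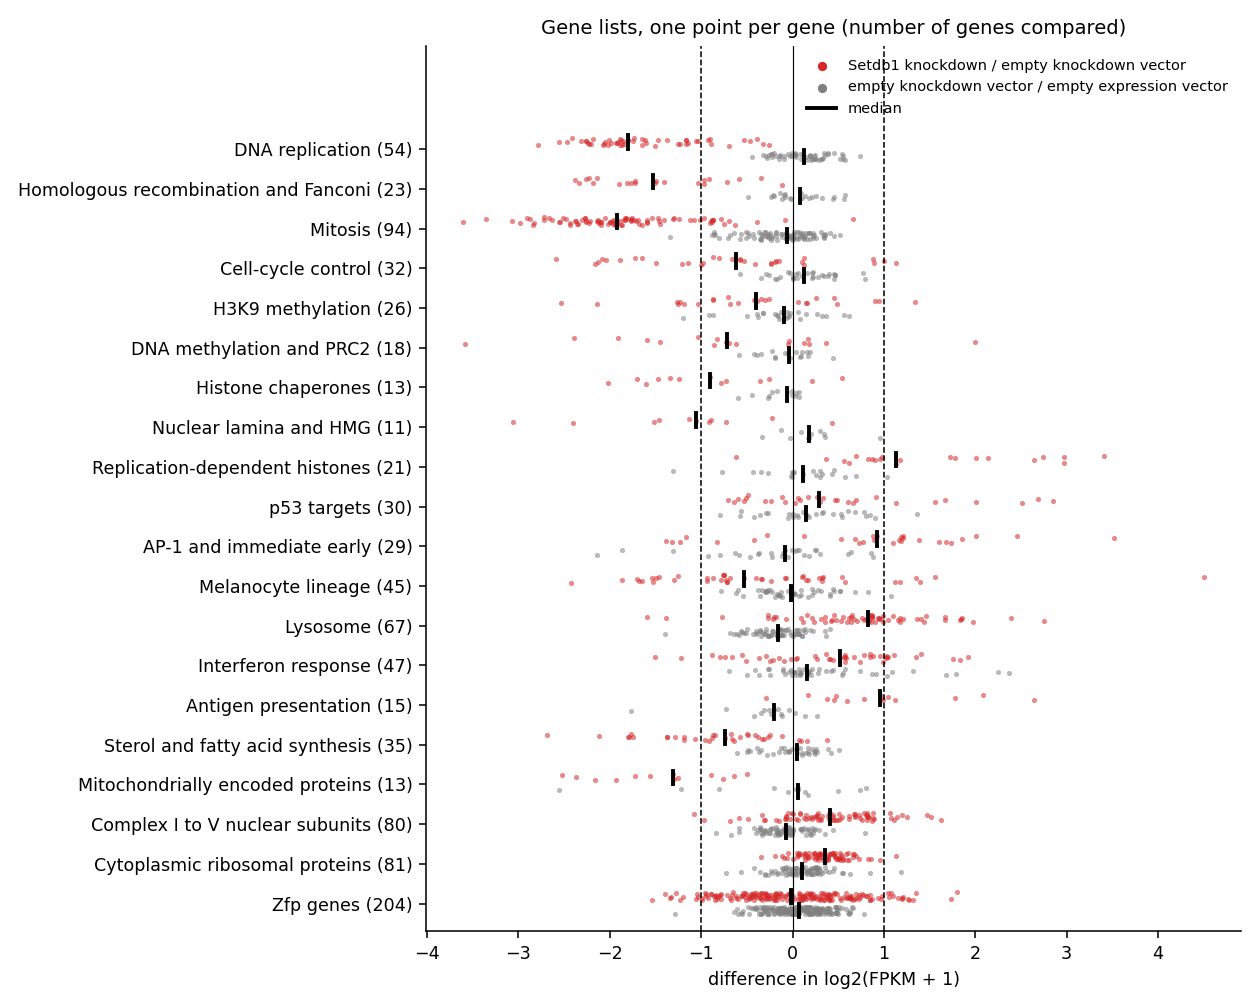
Difference in log2(FPKM + 1) for the genes of 20 lists, 1 point per gene, for knockdown against knockdown vector (red) and for the 2 controls (grey), with black bars at the medians and dashed lines at the 2-fold limits. The medians of the replication (-1.80), recombination (-1.53) and mitosis lists (-1.93) lie below the lower limit, as do those of the mitochondrially encoded (-1.31) and the lamina and high mobility group genes (-1.06). That of the Zfp genes lies near 0. The median of the 21 replication-dependent histones (1.13) lies above the upper limit, but 13 of them passed the FPKM limit only in the knockdown library. Without the FPKM filter that median was 0.11.

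The deposited table holds 167 loci outside the gene annotation, of which 93 were compared, 33 at least 2-fold higher and 2 lower (median 0.67). How these loci were found, and in which libraries, is not given in the sources used here, and 48 of the 93 passed the FPKM limit only in the knockdown library. Of the 45 that passed in the vector control, 5 were at least 2-fold higher and 2 lower, beside 8.06% and 12.4% of all genes that passed there. The table's descriptions name a protein of the intracisternal A-particle, an endogenous retrovirus that H3K9 methylation holds silent, for 26 loci, and a gammaretroviral protein for 18. Over the 26 A-particle loci the reads summed to 15106 with knockdown, 12207 with the knockdown vector and 14158 with the expression vector.

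The A-particle total was carried by 2 loci that differed in opposite directions. Locus 40 (chr12:108079024-108084418) was at 256 with knockdown against 165 and 196 in the controls, and locus 65 (chr15:73081412-73087952) at 155 against 262 and 320. The other 24 loci, set apart after the values were seen, had a summed FPKM of 70.1 with knockdown, 31.4 and 30.1 in the controls, 64.9 with Myod1 expression and 47.5 with Pparg expression. Their sum was thus higher with knockdown than in both controls, and close to that with Myod1 expression. Of the 26 loci 22 were compared, 7 of them at least 2-fold higher and none lower, beside 10.4% and 11.5% of all genes. However, 9 of the 22 passed the FPKM limit only in the knockdown library. Among the 13 that passed in the vector control 2 were higher, beside 8.06% of all genes that passed there.

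Locus 47 (chr13:119661607-119669875) had the highest log2 ratio of the A-particle loci (2.23), with 6.52 against 0.605 and 0.867 in the controls, although Pparg expression had 9.61. Locus 151 (chr8:72024834-72033079) was at 4.33 against 0.386 and 0.166, 11.2-fold above its control (7.03 to 19), and locus 163 (chrX:9328975-9332636) at 6.03 against 0.945 and 0.967, with 14.8 in the Myod1 expression library. These 3 loci passed only in the knockdown library and had 18 to 30 reads in the vector control. The gammaretroviral loci were lower as a sum, with 6566 reads with knockdown, 16539 with the knockdown vector and 21632 with the expression vector. Of the 4 gammaretroviral loci that passed in the vector control, 2 were at least 2-fold lower and none higher, beside 12.4% and 8.06% of all genes that passed there. The 4 higher loci passed only in the knockdown library. That sum was carried by locus 12 (chr1:170944971-170946158), at 237 with knockdown, 748 and 1024 in the controls, 1162 with Myod1 expression and 701 with Pparg expression.

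**Figure D5:**
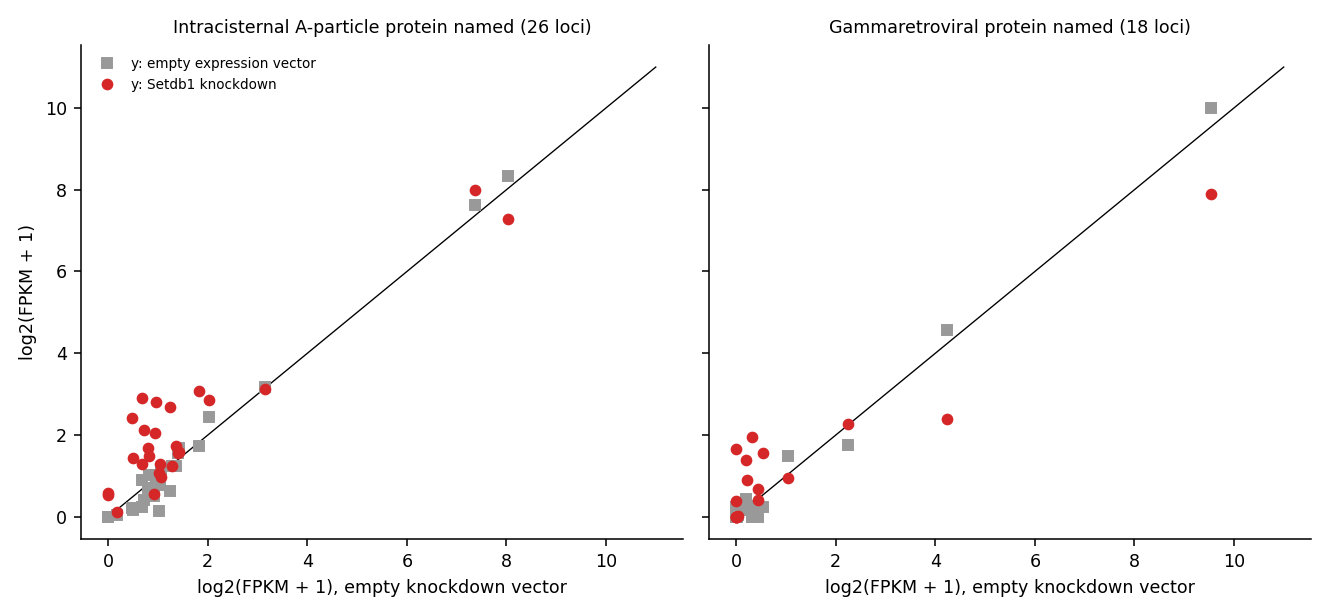
log2(FPKM + 1) of loci outside the annotation in the knockdown library (red) and in the empty expression vector library (grey), against the empty knockdown vector library, with the line of equality, for loci described with an intracisternal A-particle protein (left, 26) or a gammaretroviral protein (right, 18). Most A-particle loci with low values lie above the line with knockdown, and the strongest gammaretroviral locus, at 237 against 748, lies below it.

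Zinc finger, germline and protocadherin genes include targets of H3K9 methylation. Of 204 zinc finger genes named Zfp, 14 were at least 2-fold higher and 10 lower, smaller shares than the 10.4% and 11.5% of all genes, and their median was -0.02 (0.07 between the controls). Zfp688 (7.13 against 1.33) and Zfp518b (1.31 against 5.70) had the highest and the lowest ratio. Of 42 germline genes 3 were compared and none reached 2-fold, and 2 of the 57 clustered protocadherin genes were compared, neither of them 2-fold apart. Among 14 imprinted genes compared, 2 were at least 2-fold higher and 2 lower (1 and 1 against both controls), near the shares of all genes, with a median of 0.45. Slc22a18, a membrane transporter, was at 51.1 against 18.7 and 21.3, and Gnas, a G protein subunit, at 10.5 against 4.23 and 4.94. Peg10, a gene derived from a retroelement, was at 4.18 against 29.6 and 14.8, and Mest at 1.85 against 6.88 in the vector control but 2.39 in the second.

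The melanocyte lineage list, which holds Cited1, had 6 of 45 genes at least 2-fold higher and 11 lower (4 and 9 against both controls), beside 10.4% and 11.5% of all genes, with a median of -0.53, or -0.34 with the GC and length trends removed. Mitf, the master regulator of the lineage, was at 13.7 with knockdown, 41.6 with the knockdown vector, 28.7 with the expression vector, 8.03 with Myod1 expression and 16.7 with Pparg expression. The difference from its control was 3.04-fold (2.87 to 3.23). Pigment genes did not share one direction. Slc45a2, a melanosome transporter, was at 113 against 321 and 234, and Tyr, tyrosinase, at 52.9 against 76.9 and 76.2. Dct (906 against 835) and Mlana (1082 against 1146) differed little, while Oca2, a melanosome chloride channel, was at 31.1 against 13.2 and 7.80.

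Of receptors and factors, Met, the hepatocyte growth factor receptor, was at 22.7 against 126 and 128, and Erbb3 at 19.2 against 6.90 and 11.1. Pax3, a neural crest factor, was at 15.5 against 27.0 and 32.7. Markers of other lineages were mostly below an FPKM of 1 in both libraries. With knockdown 16 of 30 neuronal, 8 of 16 muscle and 6 of 15 adipocyte markers had no read. Of 30 neuronal genes 4 were compared, among them Tubb3, lower at 36.1 against 119 and 202, and Stmn4, with 58 reads against none in the vector control and so at least 17.5-fold higher. Of 16 muscle genes 2 were compared, 1 below 0 and 1 at least 2-fold higher, Des (13.6 against 4.75 and 6.20). Of 15 adipocyte genes 4 were compared, 3 at least 2-fold higher and 1 below 0, beside 10.4% of all genes higher. Among the higher ones were Plin2, a lipid droplet coat protein (110 against 47.2 and 69.1), and Pnpla2, a lipase (58.4 against 22.9 and 27.8). Only 1 of the 4 was higher than both controls. With the GC and length trends removed no muscle or adipocyte gene was at least 2-fold higher. In the neural crest and neural stem list 3 of 16 genes were at least 2-fold lower and none higher, and 1 was lower with the GC and length trends removed, beside 11.5% of all genes.

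Interferon response genes, often followed when retroelements are released, had 10 of 47 members at least 2-fold higher and 2 lower, beside 10.4% and 11.5% of all genes (median 0.52, and 0.16 between the controls). Of the 47, 4 passed only in the knockdown library, the median was 0.17 without the FPKM filter, and 5 were higher with the GC and length trends removed. The controls differed by 2-fold in 7 of them. Stat2, which carries the type I interferon signal, was at 9.75 with knockdown and 1.84 and 2.41 in the controls. Isg15, an antiviral ubiquitin-like protein, was at 47.5 against 18 in the vector control and 4.94 in the second, and Oasl1 at 7.81 against 1.47 and 0.164. Ifit1 (4.68 against 7.07 and 0.691) had a sign that depended on the control, and Ifit2 was lower, at 1.95 against 7.36 and 7.12. The genes of this list did not share one direction.

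MHC class I genes, which present peptides to T cells, had 5 of 15 members at least 2-fold higher and none lower, beside 10.4% and 11.5% of all genes, with a median of 0.95 (0.72 against the second control, -0.20 between the controls). Of the 15, 4 passed only in the knockdown library, H2-T23 among them, and without the FPKM filter the median was 0.42. H2-T23, a nonclassical class I gene, was at 6.79 against 0.248 (12 reads) and 0.551, and the peptide-loading factor Tapbp at 55 against 12.2 and 13.2. H2-K1, a classical class I gene, was at 14.2 against 6.33 in the vector control but 23.9 in the second, so its direction depended on the control. B2m, the shared light chain, was at 235 against 169 and 194.

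Lysosome and autophagy genes were mostly higher, with 18 of 67 at least 2-fold higher, 2 lower and 58 above 0, beside 10.4% of all genes higher. The median was 0.82, 0.59 against the second control and -0.15 between the controls. Ctsf, a lysosomal protease, was at 17.3 with knockdown and 1.73 and 2.17 in the controls. Grn, progranulin, was at 353 against 97.2 and 149. The membrane protein Lamp1 was at 512 against 247 and 259. Of the 12 autophagy genes all were above 0 and 4 at least 2-fold higher, and of 15 proton pump subunits 2 were. Ids, a lysosomal sulfatase, was at 1.91 against 7.75. The list's median was 0.83 after removal of the GC and length trends.

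Of 35 sterol and fatty acid synthesis genes, 12 were at least 2-fold lower and none higher, beside 11.5% and 10.4% of all genes, and 23 were within 2-fold (median -0.74). Fads1, a desaturase, was at 7.52 against 53.7 and 74.6, Elovl6, an elongase, at 0.655 against 6.21 and 4.97, and Acly, which makes cytosolic acetyl-CoA, at 32.2 against 114 in both controls. Of 13 transcripts encoded in mitochondrial DNA 9 were at least 2-fold lower and all 13 were below 0 (median -1.31, and -0.98 after removal of the GC and length trends). mt-Nd1 was at 837 with knockdown and 3741 and 2648 in the controls, and mt-Co1, the most abundant, at 4379 against 6806 and 6170. Nuclear genes for the same complexes had 9 of 80 at least 2-fold higher, a share near the 10.4% of all genes, and 1 lower, with a median of 0.41. Of 81 cytoplasmic ribosomal proteins 1 was at least 2-fold higher and none lower, with a median of 0.36. Removal of the same trends left these medians at 0.22 and 0.15.

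Some lists had medians that depended on which control was used. The amino acid and ER stress list had 10 of 42 genes at least 2-fold higher and 6 lower against the knockdown vector, beside 10.4% and 11.5% of all genes, with a median of 0.25, but -0.23 against the second control and -0.58 between the controls. Trib3, a target of Atf4, was at 88 with knockdown and 13.5 with the knockdown vector, but 109 with the expression vector. Ddit3, CHOP, was at 87.0 against 19.4 and 58.9. Hspa5, the main ER chaperone, was lower than both, at 113 against 229 and 272. The hypoxia and glycolysis list had a median of -0.17 against its control and -1.34 against the second, with -1.01 between the controls. In it Eno1, a glycolytic enzyme with many pseudogenes, was at 253 against 1205 and 2057. The 33 matrix and integrin genes had medians of 0.22 and -0.24 against the 2 controls. Of them 5 were at least 2-fold higher and 5 lower against the knockdown vector, near the shares of all genes. Against both controls 2 were higher and 4 lower. The 2 higher ones were Spp1, osteopontin, at 23.8 against 3.12 and 5.13, and the fibronectin receptor chain Itga5, at 70.0 against 17.2 and 29.0.

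The heat shock and chaperone list had 1 of 20 genes at least 2-fold higher and 2 lower, no larger shares than the 10.4% and 11.5% of all genes. Of the 3, Hsp90aa1 was at 22.8 against 149 and 233, the mitochondrial chaperonin Hspd1 at 87.1 against 379 and 291, and Hspb1 at 15.9 against 3.83 and 2.97. Of 7 S100 genes, 4 were higher, beside 10.4% of all genes, and none lower, with a median of 1.47 against the vector control and 0.60 against the second, and of 0.09 over all 15 S100 genes without the FPKM filter. S100a6 was at 27.3 against 5.69 in the vector control but 17.7 in the second, and S100a13 at 42.0 against 10.6 and 11.2. Akt1, the growth factor kinase, was at 67.2 against 375 and 361. Of 36 hnRNP and SR splicing factors, 9 were at least 2-fold lower, beside 11.5% of all genes, and none higher (median -0.66), but 5 were lower than both controls and 5 with the GC and length trends removed. Of 40 ribosome biogenesis factors, 8 were lower, 4 with the GC and length trends removed, and none higher, and their median of -0.45 stood beside -0.18 against the second control and 0.35 between the controls.

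The counts of the remaining lists stand beside 10.4% of all genes higher and 11.5% lower. Of 22 Nrf2 targets, which serve antioxidant defence, 3 were at least 2-fold higher and 2 lower, of 22 Bcl2 family and caspase genes 2 and 2, of 32 growth signalling genes 1 and 5, of 15 tubulin isotypes 1 and 4, and of 8 secreted senescence factors none and 1. The 35 proteasome subunits had 1 and 1, the 79 mitochondrial ribosomal proteins 4 and none, the 12 replacement histones 1 and 2, the 5 serpins 1, which passed only in the knockdown library, and none, and the 162 solute carriers 23 and 20. Their medians ran from -0.28 for growth signalling to 0.32 for the Bcl2 family and caspases.

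Noncoding genes by the same rule were led by Rn7sk (3.67), the small RNA that holds back transcription elongation, which had 114 reads against 3, a ratio of 34.3 with the interval 11.5 to 169. Gm45847, a lincRNA, was at 21.5 against 1.07 and 0.742, and Lncenc1, a lincRNA of embryonic stem cells, at 5.01 against 0.127 and 0.408. Gm26917, a lincRNA, was at 331 against 45.2 and 40.2, and Gm15640, an antisense RNA, at 10.6 against 0.908 and 2.56. Of 142 lincRNAs compared 35 were at least 2-fold higher and 8 lower, and of 112 antisense RNAs 26 and 1. Among those that passed in the vector control the counts were 13 and 8 of 91 lincRNAs, and 8 and 1 of 65 antisense RNAs, beside 8.06% and 12.4% of all genes that passed there. Of 37 snRNAs compared 14 were higher and 12 lower, and of 73 snoRNAs 24 and 24, but among those that passed in the vector control 1 and 12 of 20, and 3 and 24 of 51. All lower genes had to pass in the vector control, so the latter counts lean toward lower ones. Against the second control 11 snRNAs were higher and 3 lower, and 23 and 4 snoRNAs. The vector control itself was at least 2-fold above the second control in 11 of the 37 snRNAs and 30 of the 73 snoRNAs. Without known strand handling, reads of an antisense RNA such as Gm15640 and of the gene on the other strand cannot be told apart. The 5 lowest were Gm10698 (-2.70), Gm4202 (-2.54), 2010008C14Rik (-2.29), Gm9816 (-2.26) and Gm15455 (-2.11), of which 4 are annotated as processed pseudogenes. Of a list of 11 small and structural RNAs without a poly(A) tail 3 were compared, and all 3, Rn7sk, Terc and Rnu12, passed the FPKM limit only in the knockdown library and so had to be higher there, Terc with 9 reads and Rnu12 with 5 against none, and whether libraries differed in RNA selection was not tested.

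Higher and lower genes differed in base composition and length. The median GC content of the transcript was 54.7% for genes at least 2-fold higher, 46.3% for those lower and 49.97% for all genes with a value, and median gene lengths in the table were 2630, 4735 and 3940 bases. In the fifth of genes with the lowest GC content 2.92% were at least 2-fold higher and 20.2% lower, and in the fifth with the highest 21.8% were higher and 4.58% lower. Across 11455 genes, which share both libraries, GC content and the log2 ratio had a Spearman's rho of 0.41, with 0.29 against the second control and -0.29 between the controls. After bin medians of GC content and length were subtracted, 833 genes were at least 2-fold higher and 1127 lower. Cited1 (3.87), Klf2 (3.06), Uhrf1 (-3.79) and Setdb1 (-2.35) stayed beyond 2-fold. The part of this trend in the list values was not tested further.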

How the data were processed

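Total RNA of B16F10 cells was sequenced, 1 library per group, after NEBNext Ultra library preparation, per the labels' protocols. The authors deposited 1 table of FPKM values for 5 libraries; per the submitters' processing notes CASAVA, HISAT2, featureCounts 1.5.0-p3 and the build GRCm38 were used. Handling of strand and of shared reads is not given in the sources used here. FPKM times gene length were whole multiples of 1 step per library for 100% of values (tolerance 0.01 reads), which gave back reads per gene. The deposited FPKM had been scaled between libraries: the divisor equalled median-of-ratios size factors over 14534 genes times the mean depth, at 1.06 times the reads for knockdown and 1.03 for its vector. Depth was 16214802 to 18300670 reads. Positions matched GENCODE M21 (GRCm38) for 98.3% of 54495 shared identifiers.

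Log2 ratios used a pseudocount of 1 and a 2-fold limit, over genes that reached an FPKM of 1 in the knockdown or the vector library. Intervals (95%) are exact Poisson for FPKM and exact binomial for ratios. A fold against 0 reads was computed against 3 reads and is a lower bound. No test was possible. The members and the 49 gene lists and families were chosen with earlier results of these data known. Of 1259 list entries 4 were not matched by symbol. Named are Setdb1, Cited1, Klf2 and Uhrf1, the 15 highest and 15 lowest protein-coding and 5 and 5 other genes with 2-fold differences from both controls and at least 100 reads, the highest and lowest list members, and members whose role is described. RefSeq promoters (GRCm38.p6) were found for 8231 of 10121 protein-coding genes (81.3%), by symbol or a unique synonym. GC content came from the longest M21 transcript. Python 3.11.15, pandas 2.3.3, SciPy 1.17.1 and matplotlib 3.10.9 were used, and the read recovery and intervals were tested on simulated data. Alternatives were another pseudocount, filters, scalings, limit and control, and protein-coding genes alone; the removal of GC and length trends was added after the data were seen.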

Additional observations from a re-analysis of the deposited data

How the results depend on the processing

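With a 4-fold limit 118 genes were higher and 192 lower, and the requirement of a difference from both controls left 745 higher genes. Under the other alternatives both counts stayed within 1.5 times of 1200 and 1326. With a pseudocount of 0.1 they were 1757 and 1950, with division by the column sum 1028 and 1517, and with GC and length trends removed 833 and 1127. Of 42 lists with at least 5 genes, 34 had no median of the opposite sign under the alternatives run for lists, though some reached 0. The others were the amino acid and ER stress, matrix and integrin, Nrf2, proteasome, replacement histone, secreted senescence factor, TGF-beta and Zfp lists, all with medians between -0.15 and 0.25 as reported. The median of the replication-dependent histones moved from 1.13 to 0.11 without the FPKM filter. None of the genes named by rank changed sign under the alternatives, but among list members Trib3, H2-K1, Ccng1 and Ifit1 had opposite signs against the 2 controls, as did members with small differences such as Tyrp1, Dct, Mlana and Trim28. No paired analysis was possible because each group has 1 library. Leaving out a library was likewise not possible, so the spread between cultures, hairpins and days is unknown. Low control reads limit the ratios of Klf2, Rn7sk, H2-T23 and single retroelement loci, and differences under 2-fold were within the range seen between the controls for many genes.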

Other observations

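The genes below were not described among the gene groups and were chosen after their values were seen. Ptgds, a prostaglandin D synthase, had an FPKM of 1920 with knockdown, 256 and 249 in the 2 controls, 290 with Myod1 expression and 68.8 with Pparg expression. It was 7.49-fold above its control (95% interval 7.31 to 7.68, counting error only), and with 58583 reads it was among the most abundant transcripts of the library. Serpinb9b, a protease inhibitor and the serpin that was at least 2-fold higher, was at 8.18 with knockdown against 0.839 and 1.32 in the controls, so that it passed the FPKM limit only through the knockdown library of its pair.

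Mgat5, a Golgi enzyme that branches the sugars of membrane proteins, was at 21.2 with knockdown and 58.2 and 55.1 in the controls. Its values with Myod1 expression (19.3) and Pparg expression (21.7) were close to that with knockdown.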
